A study of Homo sapiens with 4 samples.

Results

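Charcot-Marie-Tooth disease and related inherited neuropathies are caused by variants in many genes, among them MORC2, whose variants cause the axonal form called type 2Z. The 39 genes described here were chosen by name as inherited neuropathy genes other than tRNA synthetases, out of 28775 genes counted. The choice applied no rule on their measured values, but it was made with earlier results of these data known. They were split by the main role of their products into 13 myelin genes, 6 mitochondrial genes and 20 axonal genes. RNA was sequenced from HEK293T cells, an established line grown from human embryonic kidney, in 2 MORC2 KO and 2 WT samples. The MORC2 KO samples were edited with Cas9 protein and a guide RNA, sgRNA 1 in replicate 1 and sgRNA 2 in replicate 2, and the WT samples are replicates 1 and 2, for which the labels name no guide. The edited cells were kept in bulk and not cloned, so a sample can hold cells with different edits. Each MORC2 KO sample is a separately edited line, and guide and replicate cannot be told apart.

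Peripheral nerve conducts fast because Schwann cells wrap axons in compact myelin, a stack of membrane held together by a small set of abundant proteins. Axons in turn depend on neurofilaments for their calibre, on motors that carry cargo along microtubules, on mitochondria placed far from the cell body, and on chaperones and endosomes that clear worn proteins. Inherited neuropathies that slow conduction mostly arise from myelin genes, and those that lower its amplitude mostly from axonal and mitochondrial genes. HEK293T cells make neither myelin nor long axons, so the levels below are those of a dividing line in which most of these genes serve general cell functions.

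Counts on genes summed to between 53970043 and 64312514 read pairs per sample. MORC2 (chromosome 22, 31388696 to 31432332 on T2T-CHM13, 27 exons) was counted 3064 and 3637 times in the MORC2 KO replicates 1 and 2, and 5131 and 4669 times in the WT replicates. Its RNA fell by 0.71 on the log2 scale (SE 0.06, adjusted p = 1.37e-04, edgeR), with both MORC2 KO samples below both WT samples. MORC2 RNA was lower but not absent, and 23.3% of its exonic bases lie opposite exons of MORC2-AS1, where counting without strand cannot assign reads. The MORC2 KO samples differed from each other by a median of 0.12 per gene on the log2 scale and the WT samples by 0.076, and MORC2 KO replicate 2 lay further from the WT samples (0.14 and 0.16) than MORC2 KO replicate 1 did (0.088 from each). Of the markers of other cell types, 4 of 7 Schwann cell markers, among them SOX10, S100B and CDH19, had under 3 counts in every sample, and the 7 together summed to between 1.84 and 2.06 CPM (counts scaled to library size with TMM factors). The neuron marker STMN2 had at most 2 counts in a sample. However, 7 of the 8 neuron markers passed the filter on low counts, and the 8 summed to between 58.6 and 62.6 CPM. The blood cell marker PTPRC had at most 1 count, while 3 of the 6 blood cell markers passed the filter, with a sum of 3.53 to 4.42 CPM over the 6. VIM, an intermediate filament gene listed among 7 markers of embryonic kidney and epithelial lines, had 30597 to 36603 counts. The median WT level of the 7 was only 0.996 CPM per kb of exon, so the high count of VIM does not stand for the list.

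The promoters of the neuropathy genes differed in CpG content, and the levels of several genes can be read beside them. RefSeq gave promoter windows on GRCh38.p14, from 250 bases before a start to 50 after it, for 32 of the 39 genes. NDRG1, GDAP1, NEFL, NEFH, SPG11, TRPV4 and IGHMBP2 were not matched. The sequences shown first were picked because they span the range from GJB1, without a single read, to PRPS1, the neuropathy gene with the highest level per length. PMP22, the myelin protein gene most often at fault in the demyelinating form, is shown at the first and second of its 3 listed starts, since the upstream start is known as the one used by myelinating Schwann cells and the downstream one for use in other tissues. Capitals mark CG dinucleotides, and each line runs 5′ to 3′ on the strand of the gene.
GJB1, chrX:71214989-71215288, + strand: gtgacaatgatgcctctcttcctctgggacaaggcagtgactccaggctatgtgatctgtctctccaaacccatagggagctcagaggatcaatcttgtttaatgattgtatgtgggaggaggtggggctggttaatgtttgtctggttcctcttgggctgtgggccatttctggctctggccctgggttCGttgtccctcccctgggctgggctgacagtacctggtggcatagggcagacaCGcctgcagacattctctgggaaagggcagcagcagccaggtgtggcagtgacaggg
PMP22 first listed start, chr17:15265277-15265576, - strand: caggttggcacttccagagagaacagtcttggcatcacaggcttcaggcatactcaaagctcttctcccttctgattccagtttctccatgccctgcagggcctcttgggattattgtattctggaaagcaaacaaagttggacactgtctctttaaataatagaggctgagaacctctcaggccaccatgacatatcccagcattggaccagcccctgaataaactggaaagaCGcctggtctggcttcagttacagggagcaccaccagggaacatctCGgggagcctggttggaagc
PMP22 second listed start, chr17:15262503-15262802, - strand: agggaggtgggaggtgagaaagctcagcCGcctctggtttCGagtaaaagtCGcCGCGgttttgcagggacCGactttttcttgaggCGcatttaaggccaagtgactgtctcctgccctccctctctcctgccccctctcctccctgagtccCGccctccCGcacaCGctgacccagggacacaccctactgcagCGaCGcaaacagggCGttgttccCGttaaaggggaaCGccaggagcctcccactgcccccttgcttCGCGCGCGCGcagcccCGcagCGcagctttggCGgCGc
PRPS1, chrX:107628260-107628559, + strand: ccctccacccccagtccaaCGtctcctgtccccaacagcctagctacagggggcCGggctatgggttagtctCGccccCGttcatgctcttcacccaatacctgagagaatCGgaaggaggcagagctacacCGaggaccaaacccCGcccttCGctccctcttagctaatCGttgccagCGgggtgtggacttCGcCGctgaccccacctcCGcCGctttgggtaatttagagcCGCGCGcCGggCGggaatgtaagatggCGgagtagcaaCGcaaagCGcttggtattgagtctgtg

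GJB1 and the upstream PMP22 window held 2 CG dinucleotides each in 300 bases, against 24 in the downstream PMP22 window and 22 in PRPS1. The CpG ratio (observed over expected from base composition) was 0.0875 for GJB1 and 0.104 for the upstream PMP22 window. At the downstream PMP22 start shown it was 0.786, close to the 0.795 of PRPS1. The last listed PMP22 start, not shown, lay further downstream at 0.952. That value is the one taken for PMP22 where the most CpG-rich start is used. The gene counts do not tell which PMP22 start was used. Taking the first listed start of each gene, the median ratio was 0.406 over 12 myelin genes, 0.964 over 5 mitochondrial genes and 0.918 over 15 axonal genes, against 0.828 over 12805 tested genes with a window. Taking the most CpG-rich start instead, the medians were 0.775 for the myelin, 0.964 for the mitochondrial and 0.918 for the axonal genes, against 0.857 for the tested genes. The myelin median was the lowest of the 3 groups either way, but the gap shrank with the start taken for the 7 myelin genes that have several. The 4 genes with no listed start over a ratio of 0.6 were GJB1, SH3TC2, PRX and HSPB8. Each of them has only 1 listed start, so the choice among listed starts could not move them. Starts that are not listed were not examined.

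**Figure D1:**
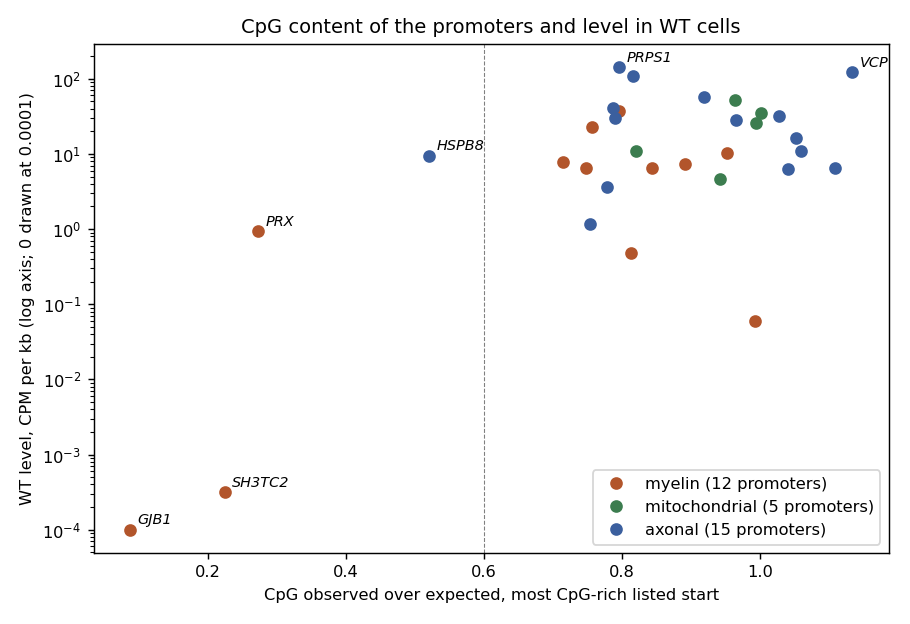
Each point is 1 of the 32 neuropathy genes with a promoter window, with the CpG ratio of its most CpG-rich listed start on the x axis, its mean level in the 2 WT samples (CPM per kb of exon, log axis, 0 drawn at 0.0001) on the y axis, and the group as colour. GJB1, SH3TC2 and PRX sit at ratios of 0.0875 to 0.273 and at levels under 1 CPM per kb, EGR2 (0.991) and FGD4 (0.812) lie lower than PRX at high ratios, and HSPB8 at 0.52 is the only axonal gene left of the dashed line at 0.6.

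None of the neuropathy genes passed an adjusted p of 0.05. Of the 39, 37 passed the filter on low counts and were tested, and 0 were called by the edgeR quasi-likelihood F-test after Benjamini-Hochberg correction, where 0.618% of the 16675 tested genes were called (0.588% higher and 0.03% lower in the KO samples). At an unadjusted p under 0.05 there were 2 higher (SPG11 and DHTKD1) and 4 lower (BAG3, AIFM1, LMNA and PRPS1), together 6 of 37 against 14.3% of all tested genes (8.14% higher and 6.17% lower). DESeq2 also called 0, with 4 at an unadjusted p under 0.05. The median log2 fold change over the 37 was -0.033, against 0.005 over all tested genes, with 11 above 0 and 26 below, where 51.5% of all tested genes lay above 0. Among the 17 neuropathy genes with a mean log2 CPM over 6 the median was -0.062, where that of all 4108 such genes was -0.048, and among the 14 with a mean log2 CPM of 4 to 6 it was 0.013 against -0.001. The 95% interval of the log2 fold change lay within 0.5 of 0 for 35 of the 37 and within 0.25 of 0 for 20, the exceptions at 0.5 being EGR2 and NEFH, which had under 30 counts in every sample. Both MORC2 KO samples lay above both WT samples for 5 and below for 11, where 24.1% and 23.4% of all tested genes did so.

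**Figure D2:**
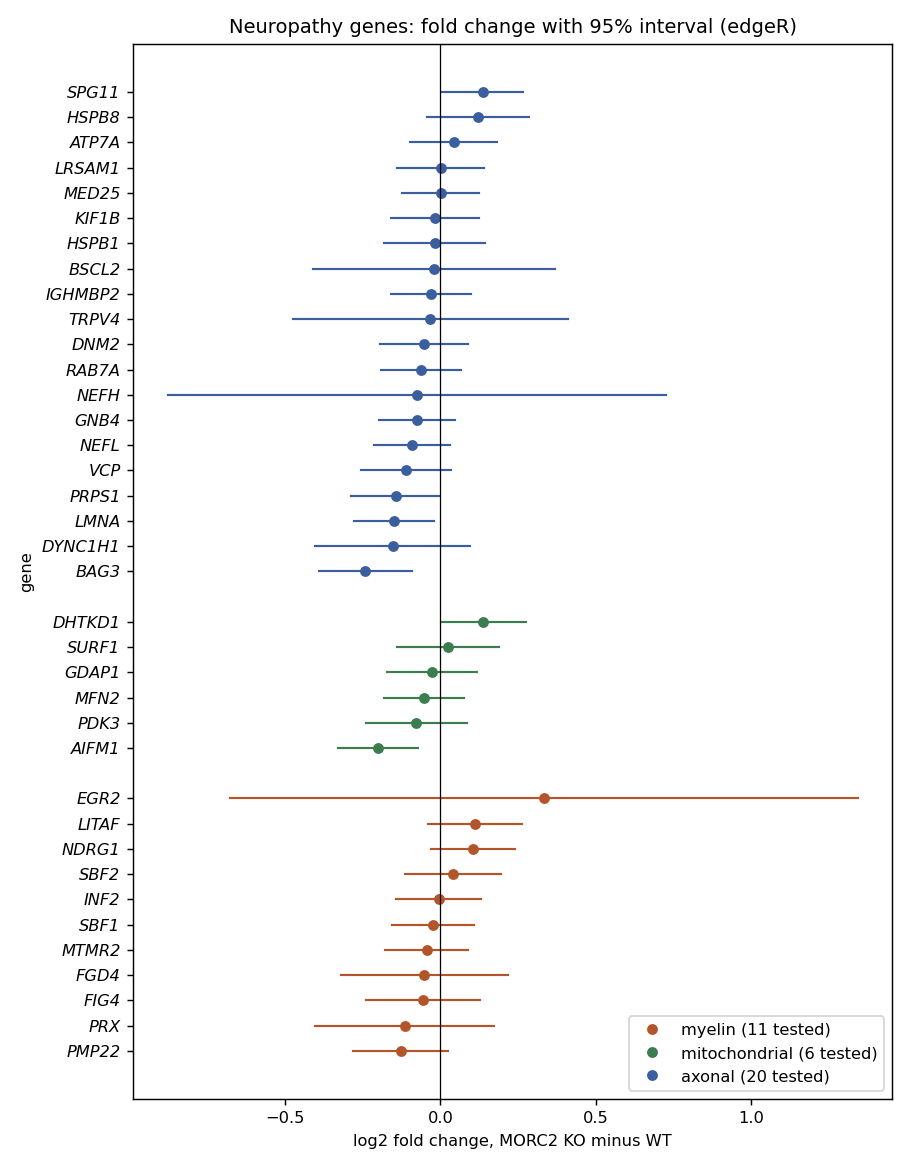
The x axis gives the log2 fold change (MORC2 KO minus WT), drawn for each of the 37 tested neuropathy genes, by group, with its 95% interval from the fit over all genes. All points but that of EGR2 lie between -0.24 and 0.14, and the intervals of 6 genes leave out 0 before adjustment.

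Levels spread over more than 3 orders of magnitude, and within each gene the samples lay close together. Per kb of exon, PRPS1 stood highest at 143 CPM per kb in WT samples, followed by VCP at 121 and RAB7A at 110. The lowest tested genes were FGD4 at 0.481, TRPV4 at 0.445, NEFH at 0.108 and EGR2 at 0.0601 CPM per kb. In 30 of the 37 tested genes every sample had at least 1000 counts, and 29 lay above the median of all tested genes by level per length. The median level in WT samples was 18.3 CPM per kb for mitochondrial and 13.7 for axonal genes, against 4.75 for all tested genes. It was 6.50 for the 13 myelin genes, among them the untested GJB1 and SH3TC2. The median log2 fold changes of the groups were -0.024 (myelin), -0.039 (mitochondrial) and -0.042 (axonal). They lay as close to each other as the sample medians of 1 group lay within a genotype (pooled SD of 0.03, 0.025 and 0.023). A difference between the groups was not tested.

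**Figure D3:**
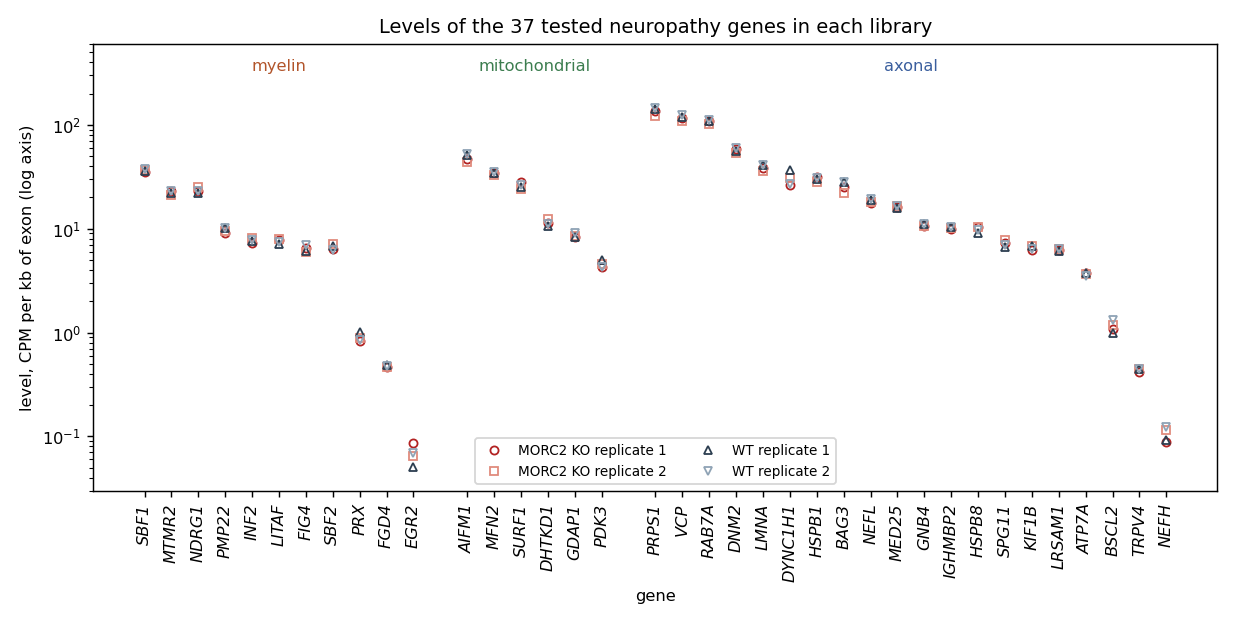
The level of each of the 37 tested neuropathy genes is drawn as CPM per kb of exon (y axis, log scale) with 1 symbol per sample, ordered within its group by the WT mean. PRPS1 is highest and EGR2 lowest, and the 4 symbols overlap for most genes, with DYNC1H1 in WT replicate 1 as a visible gap.

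Of the 13 myelin genes, 4 stand for myelin and Schwann cell identity. GJB1 was silent and EGR2 and PRX were low. PMP22, at 10.2 CPM per kb in WT samples, lay above the median of all tested genes (4.75). GJB1, which encodes a gap junction protein of the myelin sheath, had 0 counts in all 4 samples, which allows a level of up to 0.0564 CPM (3 counts) in the shallowest one. SH3TC2, an endosomal protein of Schwann cells, had 0 and 2 counts in MORC2 KO replicates 1 and 2 and 1 and 0 in the WT samples, so neither gene was tested. EGR2, the transcription factor that drives myelination, had 17 and 14 counts in the KO samples against 10 and 12 in WT samples. Its log2 fold change of 0.33 was the highest of the group, but with an SE of 0.46 (adjusted p = 0.77, edgeR) it was not distinguishable from 0. PRX (periaxin, a scaffold that anchors myelin to the matrix) had 281 and 327 counts against 340 and 251, and its samples overlapped (log2 fold change -0.11, SE 0.13).

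PMP22 had 18.9 and 19.8 CPM in MORC2 KO replicates 1 and 2 against 21.3 and 21.0 in WT replicates 1 and 2. Both MORC2 KO samples were lower, with a log2 fold change of -0.13 (SE 0.07), the lowest of the myelin group. The adjusted p was 0.43 (edgeR) and the 95% interval ran from -0.28 to 0.03. LITAF and NDRG1, which act in endosomal sorting and receptor recycling, were the myelin genes with both MORC2 KO samples above both WT samples, at log2 fold changes of 0.11 (SE 0.07) and 0.1 (SE 0.06), and neither passed the test. The genes of phosphoinositide turnover lay near 0. SBF1, a catalytically inactive partner of the lipid phosphatase MTMR2, had the highest level per length of the myelin genes, with 285 and 297 CPM in the KO samples and 290 and 301 in WT samples. The SBF1 samples overlapped, and the log2 fold change was -0.02 (SE 0.06). MTMR2 itself was at -0.04, SBF2, its other partner, at 0.04, and FIG4, a phosphatase of the same lipids, at -0.06. FGD4 and INF2, which regulate actin, were at -0.05 and -0.01.

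The wider myelin and endosome genes gave no called gene either. Of 20 further myelin and Schwann cell genes, 10 were tested and 0 were called, with 0 at an unadjusted p under 0.05, and the median log2 fold change was 0.008. NAB1, a cofactor of EGR2, was highest at 0.17 (SE 0.08). Of 18 partners in phosphoinositide metabolism and endosomes, 18 were tested and 0 were called, with 2 higher and 0 lower at an unadjusted p under 0.05. VAC14, the scaffold that holds FIG4, was lowest at -0.11 (SE 0.07), and NEDD4, a ubiquitin ligase that binds LITAF, highest at 0.25 (SE 0.07, adjusted p = 0.17, edgeR).

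No mitochondrial gene passed the test, and AIFM1 and DHTKD1 had the lowest and the highest log2 fold change. AIFM1 (chromosome X, 128448167 to 128484647 on T2T-CHM13, 17 exons) encodes a flavoprotein of the intermembrane space that helps build the respiratory chain, and was the mitochondrial gene with the highest level per length. It had 151 and 141 CPM in MORC2 KO replicates 1 and 2 against 166 and 170 in WT replicates 1 and 2. Both MORC2 KO samples were lower, and the log2 fold change of -0.2 (SE 0.06, 95% interval -0.33 to -0.07) had an unadjusted p of 0.00542 and an adjusted p of 0.19 (edgeR). DHTKD1 (chromosome 10, 12080265 to 12134492, 17 exons), a dehydrogenase of lysine breakdown in the matrix, had 59.3 and 64.8 CPM against 55.5 and 57.3. Both MORC2 KO samples were higher, with a log2 fold change of 0.14 (SE 0.06, adjusted p = 0.35). The remaining genes overlapped between genotypes, with MFN2 (fusion of outer membranes) at -0.05, GDAP1 (shape of the network) at -0.03, SURF1 (assembly of cytochrome c oxidase) at 0.02 and PDK3 (inhibition of pyruvate dehydrogenase) at -0.08. Of 26 further genes of mitochondrial dynamics and their partners, 0 were called, with 1 higher and 1 lower at an unadjusted p under 0.05 and a median log2 fold change of -0.067. Those were PDK1 at 0.14 (SE 0.06) and PDHA1, the pyruvate dehydrogenase subunit that such kinases inhibit, at -0.15 (SE 0.06).

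The axonal genes had 15 log2 fold changes below 0 and 5 above, and their ends were BAG3 and SPG11. BAG3 (chromosome 10, 120548963 to 120575488, 4 exons), a co-chaperone that hands misfolded proteins to autophagy, had 65.0 and 56.6 CPM in MORC2 KO replicates 1 and 2 against 72.0 and 71.6 in WT replicates 1 and 2. Both MORC2 KO samples were lower, replicate 2 more so, and the WT samples were almost equal. The log2 fold change was -0.24 (SE 0.07, 95% interval -0.39 to -0.09), with an unadjusted p of 0.00421, the smallest among the neuropathy genes, and an adjusted p of 0.17 (edgeR). BAG3 passed the threshold when low counts were not filtered (adjusted p = 0.0162, with 2.84% of 22728 genes called) and with offsets for gene length (adjusted p = 0.048, with 1.42% called). SPG11 (chromosome 15, 42370662 to 42471634, 40 exons), which helps re-form lysosomes from spent autophagic vesicles, had 56.6 and 60.1 CPM against 52.3 and 53.9. Both MORC2 KO samples were higher by a log2 fold change of 0.14 (SE 0.06, adjusted p = 0.33).

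LMNA and PRPS1 were the other axonal genes with an unadjusted p under 0.05. LMNA (chromosome 1, 155221038 to 155278530, 20 exons) encodes lamins of the nuclear envelope and had 169 and 159 CPM in the KO samples against 182.1 and 181.7 in WT samples. The MORC2 KO samples were both lower, by a log2 fold change of -0.15 (SE 0.06, adjusted p = 0.30). PRPS1 (chromosome X, 106065274 to 106087791, 7 exons), which makes the ribose phosphate precursor of nucleotides, had 283 and 253 CPM against 293 and 299. The difference to WT was small in MORC2 KO replicate 1 and larger in replicate 2, and the log2 fold change was -0.14 (SE 0.07, adjusted p = 0.35).

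**Figure D4:**
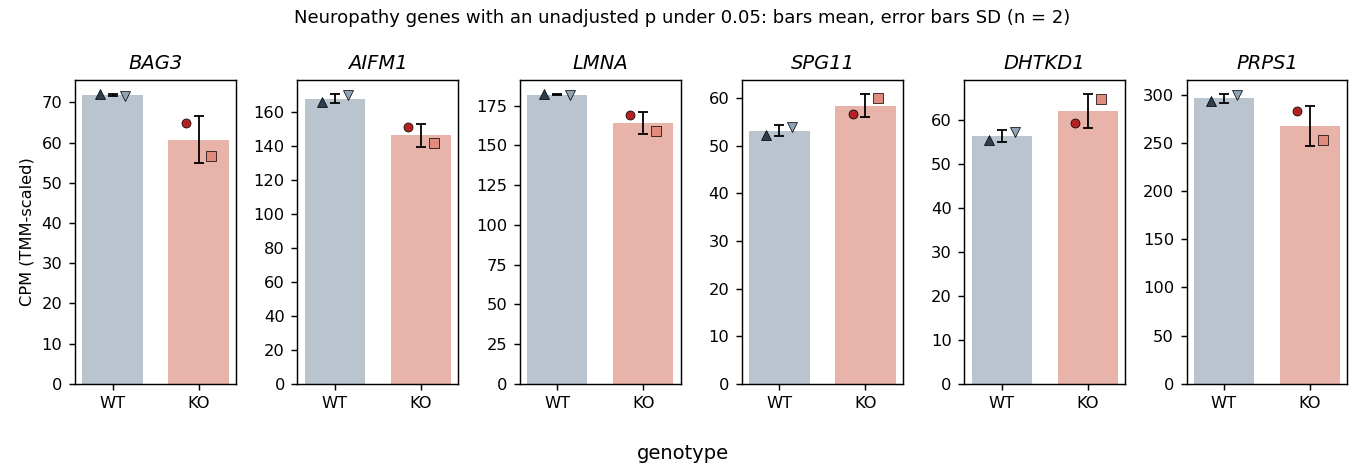
Mean CPM (TMM-scaled, y axis from 0) in WT and MORC2 KO samples is drawn as bars for the 6 neuropathy genes with an unadjusted p under 0.05, with error bars of 1 SD (n = 2) and the samples as points (circle and square for MORC2 KO replicates 1 and 2, upward and downward triangles for WT replicates 1 and 2). BAG3, AIFM1, LMNA and PRPS1 are lower and SPG11 and DHTKD1 higher in both MORC2 KO samples, and none passed an adjusted p of 0.05.

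Neurofilament and motor genes showed no called difference, and DYNC1H1 differed more between the WT samples than between genotypes. NEFL, the light neurofilament subunit, had 63.5 and 64.3 CPM in the KO samples against 67.4 and 68.7 in WT samples, with a log2 fold change of -0.09 (SE 0.06). NEFH, the heavy subunit, had 20 to 29 counts in the 4 samples and a log2 fold change of -0.08 (SE 0.37). DYNC1H1 (chosen after its values were seen), the heavy chain of cytoplasmic dynein, had 530 and 609 CPM in MORC2 KO replicates 1 and 2 against 727 and 540 in WT replicates 1 and 2. WT replicate 1 stood above all others, and among the 4108 genes with a mean log2 CPM over 6 only 7 differed more between the WT samples. Its log2 fold change was -0.15 (SE 0.11), and it was -0.35 without WT replicate 2 and 0.08 without WT replicate 1. KIF1B, a kinesin that carries cargo outward along the axon, was at -0.02 (SE 0.07). Of 18 transport and neurofilament partners 17 were tested and 0 were called, with 2 higher and 0 lower at an unadjusted p under 0.05 and a median of -0.014. NEFM, the medium neurofilament subunit, was highest with 491 and 585 counts against 391 and 319 (log2 fold change 0.44, SE 0.11, adjusted p = 0.12, and 0.00725 without a filter on low counts), and DYNC1LI1, a light intermediate chain of dynein, was lowest at -0.13 (SE 0.06).

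The remaining axonal genes act in membrane traffic, signalling, the nucleus and metal supply. RAB7A, the GTPase of late endosomes, and DNM2, which pinches off vesicles, were at -0.06 and -0.05. BSCL2, a seipin of the endoplasmic reticulum, was at -0.02 (SE 0.18), and 75.2% of its exonic bases overlap other genes, where read pairs were not counted. TRPV4, a cation channel, had 77 to 96 counts and lay at -0.03 (SE 0.2), and GNB4, a G protein subunit, at -0.08 (SE 0.06). MED25, a Mediator subunit, lay at 0.001, IGHMBP2, a helicase, at -0.03, and ATP7A, a copper transporter, at 0.04. Of MED25, 34.7% of the exonic bases overlap PTOV1-AS1 or MIR6800.

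The chaperone genes split in direction, while most of their partners lay below 0. Besides BAG3, VCP, an ATPase that extracts proteins for degradation, had both MORC2 KO samples below both WT samples (504 and 467 against 513 and 536 CPM, log2 fold change -0.11, SE 0.07). HSPB8, the small heat shock protein that pairs with BAG3, had 19.1 and 19.2 CPM against 17.0 and 18.3, and both MORC2 KO samples were higher (0.12, SE 0.08). HSPB1, another small heat shock protein, was at -0.02 and LRSAM1, a ubiquitin ligase, at 0.002. Of 22 further chaperone and quality control genes 20 were tested. None was called, 18 lay below 0, and 8 were lower and 0 higher at an unadjusted p under 0.05, where 6.17% of all tested genes were lower at that threshold. Their median log2 fold change was -0.091. The share over all tested genes is not matched for level, and the 4108 tested genes with a mean log2 CPM over 6 had a median of -0.048. The list was also drawn up with earlier results of these data known, so these counts are a description and not a test. The stress-inducible HSPA1A was lowest at -0.6 (SE 0.16, adjusted p = 0.15), and HSPB6 was highest at 0.15 (SE 0.29). HSPA1B, chosen after its values were seen, had 75060 and 53691 counts in MORC2 KO replicates 1 and 2 against 88968 and 83354 in WT replicates 1 and 2 (-0.57, SE 0.14, adjusted p = 0.13). HSPA1A and HSPA1B are near-identical copies, so the counts can be split between them in either way. Both were called lower without a filter on low counts and with gene length offsets (adjusted p = 0.0172 for HSPA1A and 0.0157 for HSPA1B with the offsets). DNAJB1, chosen after its values were seen, was called in the same settings.

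The difference came mostly from MORC2 KO replicate 2. Relative to the WT mean, HSPA1B lay at -0.91 in that sample and at -0.29 in MORC2 KO replicate 1. DNAJB1 and HSPA8, the latter also chosen after its values were seen, lay at -0.62 and -0.57 in replicate 2 and at -0.16 and -0.12 in replicate 1. BAG3 lay further from the WT mean in replicate 2 as well. The summed level of the partner genes was 14237 and 12131 CPM in the KO samples (replicates 1 and 2) and 14754 and 15101 CPM in the WT samples. The part of MORC2 KO replicate 2 as a library in the chaperone values was not tested. Without MORC2 KO replicate 1, 8 neuropathy genes were called (DHTKD1, SPG11 and NDRG1 higher and LMNA, BAG3, VCP, PRPS1 and AIFM1 lower), but so were 20.5% of 17129 genes, and without MORC2 KO replicate 2 the count was 0. Among the partner genes, HSPA1B had a log2 fold change of -0.93 without MORC2 KO replicate 1 and -0.28 without MORC2 KO replicate 2. Each of these fits holds 1 KO sample, so the spread between KO samples does not enter.

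**Figure D5:**
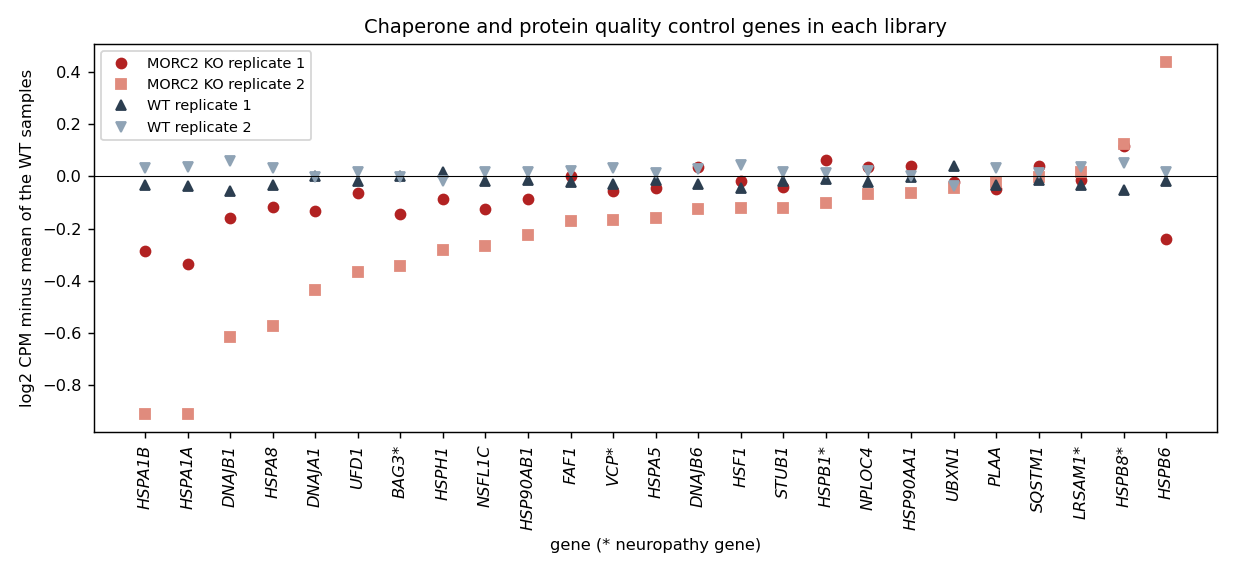
For 25 chaperone and protein quality control genes (x axis, neuropathy genes starred), the log2 CPM of each sample minus the mean of the WT samples is drawn on the y axis. MORC2 KO replicate 2 reaches -0.91 for HSPA1A and HSPA1B, MORC2 KO replicate 1 lies closer to 0 for most genes, and HSPB8 is above 0 in both.

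The promoter windows were also searched for the pair of letter patterns of the heat shock element, GAANNTTC and TTCNNGAA, which each read the same on both strands. GAANNTTC was found at a listed start of 2 of the 32 neuropathy genes with a window (HSPB1 and HSPB8) and of 6.64% of the tested genes. TTCNNGAA was found at a listed start of 1 (PMP22) and of 8.43% of the tested genes. The promoters of the small heat shock genes are shown with the GAANNTTC matches in capitals, to be read beside the chaperone values. HSPB1 had 1 match, beginning 182 bases before its start, and HSPB8 had 2, beginning 88 bases before and 4 bases after its start.
HSPB1, chr7:76302423-76302722, + strand: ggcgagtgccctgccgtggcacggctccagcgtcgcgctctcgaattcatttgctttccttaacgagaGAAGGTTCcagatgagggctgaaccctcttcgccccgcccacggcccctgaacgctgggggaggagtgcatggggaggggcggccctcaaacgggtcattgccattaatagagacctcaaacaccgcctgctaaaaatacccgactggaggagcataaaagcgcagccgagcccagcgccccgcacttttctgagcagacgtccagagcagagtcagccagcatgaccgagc
HSPB8, chr12:119178681-119178980, + strand: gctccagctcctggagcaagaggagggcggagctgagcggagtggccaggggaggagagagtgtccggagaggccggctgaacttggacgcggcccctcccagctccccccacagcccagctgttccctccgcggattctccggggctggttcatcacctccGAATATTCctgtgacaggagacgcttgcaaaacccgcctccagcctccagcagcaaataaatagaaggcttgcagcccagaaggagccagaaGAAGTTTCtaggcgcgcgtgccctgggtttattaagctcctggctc

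Neither pattern was in the window of BAG3. HSPB1 and HSPB8, with GAANNTTC, were at log2 fold changes of -0.02 and 0.12, and BAG3 was at -0.24. Matches in HSPA1A, HSPA1B, DNAJB1 and HSPA8 are not given, and a relation between the patterns and the fold changes was not tested.

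Beyond the 39, 50 other genes tied to inherited neuropathy gave a like picture. Of these, 46 were tested and 0 were called, with 4 higher and 3 lower at an unadjusted p under 0.05 and a median log2 fold change of -0.038. PRDM12, a factor of pain-sensing neurons, was highest with 60 and 91 counts in the KO samples against 55 and 46 in WT samples (0.42, SE 0.25). ATL3, an endoplasmic reticulum GTPase of sensory neuropathy chosen after its values were seen, came closest to the threshold with 3253 and 3857 counts against 2708 and 2466. It was at 0.3 (SE 0.06), with an adjusted p of 0.0545 (edgeR). DESeq2 called it (adjusted p = 0.0379), as did edgeR with library size alone (0.0352), with abundance offsets (0.0451) and without a filter (0.00114).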

How the data were processed

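The authors aligned polyadenylated RNA-seq read pairs to T2T-CHM13 with Subread and deposited counts of read pairs per RefSeq gene, made with featureCounts 2.0.6, with multi-mapping reads counted and no strand or overlap option per the file headers. Read pairs on overlapping genes were therefore dropped. Entrez identifiers were matched to symbols for 28763 of 28775 genes. Genotypes were compared in edgeR 4.0.16 (R 4.3.3), in its older quasi-likelihood form, with filterByExpr (16675 genes left), TMM factors, genotype as the only term and Benjamini-Hochberg adjustment at 0.05 over all genes. SEs are the log2 fold change over the square root of F, and with 2 samples per genotype the spread between samples limits the precision. CPM per kb uses the exonic length of the deposited table. Promoter windows and gene starts are RefSeq, GRCh38.p14, and all other coordinates T2T-CHM13. The neuropathy genes and lists were chosen with earlier results of these data known. Values per sample are given for MORC2, neuropathy genes with an adjusted or unadjusted p under 0.05, and in each group the highest and lowest fold change and the highest level per length. For other lists the called genes are named, or else the largest and smallest change, and exceptions are marked. Some genes of these lists are not reported here. Alternatives were DESeq2 1.42.0, the newer edgeR form, RLE factors, library size alone, 2 other filters, offsets on abundance and length, a threshold of 0.1, the replicate block and each sample left out. The scripts were tested on simulated data. No other sample's column was present (0 columns).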

Additional observations from a re-analysis of the deposited data

How the results depend on the processing

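Of the alternative values for single neuropathy genes 577 kept their side of the threshold and 14 gained a call. Over all genes 98 were higher and 5 lower. The counts were 463 and 182 without a filter, 168 and 68 with gene length offsets, and 88 to 1397 higher and 9 to 2117 lower when 1 sample was left out (the highest without MORC2 KO replicate 1, where the lone sample is assumed to vary like the WT samples). Lower genes numbered 17 with DESeq2, 8 with abundance offsets and 15 at a threshold of 0.1. Neuropathy genes called lower numbered 1 (BAG3) without a filter and 1 (BAG3) with length offsets, and leaving out 1 sample gave 0 to 3 higher and 0 to 5 lower. The labels give both genotypes replicates 1 and 2 without pairing them, and same-numbered samples deviated from their genotype means with r = -0.12 over 16675 genes. With the replicate block 237 genes were higher and 42 lower (1.67% in all), and with the block and length offsets 171 and 53, with 0 neuropathy genes either way. With the numbers crossed, added after the data were seen, 903 were higher and 809 lower, with 0 neuropathy genes higher and 4 lower. The myelin median of -0.024 became 0.016 with library size alone, 0.014 with abundance offsets, -0.066 with length offsets and -0.065 with block and length offsets. The mitochondrial median of -0.039 became -0.00018 with library size alone, -0.088 with length offsets and -0.088 with both, and ran from -0.061 to 0.0042 with 1 sample left out. The axonal median of -0.042 became -0.0031 with library size alone, -0.087 with length offsets and -0.088 with both. All tested genes moved along, with a median of 0.045 under library size alone and -0.037 under length offsets, and the cause of the other shifts was not tested. The sign of the log2 fold change held in every fit for 17 of 37 tested neuropathy genes, among them BAG3, AIFM1, LMNA, PRPS1, SPG11 and DHTKD1, and changed in at least 1 for 20. MORC2 was called in every fit. Of the other lists, the replicate block called HSPA1A (adjusted p = 0.00115), HSPA1B (0.000127) and DNAJB1 lower and NEFM (0.0414) and ATL3 (0.0188) higher, and the block with length offsets called HSPA1A, HSPA1B and DNAJB1. Without a filter 5 chaperone partners (those 3, HSPA8 and DNAJA1) were called lower, and NEFM, MAP1B, SYT1, ATL3, SPTLC2 and NAGLU higher and CHCHD10 lower. Leaving out 1 sample gave 1 to 11 chaperone partners lower, with HSPA1B among them each time.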

Other observations

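Neuropathy genes near called genes were counted on T2T-CHM13. Of the 37 tested, 5 lay within 500 kb of a called gene, against 5.74% of all tested genes. GNB4 lay 129036 bp from KCNMB3, LITAF 195735 bp from RMI2, FIG4 336365 bp from CCDC162P, PRX 337951 bp from ZNF780B and MTMR2 427256 bp from CCDC82. The log2 fold changes of these 5 neuropathy genes were -0.08, 0.11, -0.06, -0.11 and -0.04.

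Gene length moved with the difference between the MORC2 KO samples. The tested genes were split by exonic length into 5 bins of equal size. From the shortest to the longest bin the median log2 difference between MORC2 KO replicates 2 and 1 went from -0.072 to 0.065. Between WT replicates 2 and 1 it did not follow this trend, at 0.005 in the shortest bin, 0.027 in the next and -0.045 in the longest. The median log2 fold change between genotypes went from -0.033 in the shortest bin to 0.018 in the longest. Of the neuropathy genes, 10 lay in the longest bin and 2 in the shortest. SYT1, a synaptic vesicle gene among the neuron markers, had 9.40 and 8.64 CPM in the KO samples against 6.59 and 7.06 in the WT samples (log2 fold change 0.40, SE 0.10, adjusted p = 0.14, edgeR), while ISL1, a factor of motor and sensory neurons, had 353 and 440 counts in the KO samples against 427 and 434 counts in the WT samples (-0.28, SE 0.12). Of the markers of embryonic kidney and epithelial lines LHX1 was highest at 0.48 (SE 0.30) and KRT18 lowest at -0.15 (SE 0.11). Fibroblast markers had 3 of 6 tested, from -0.54 (COL3A1) to -0.21 (PDGFRA), and blood cell markers 3 of 6, with CD14 at -0.09, and with none at an unadjusted p under 0.05.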
